A study of Mus musculus with 8 samples.

Results

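AP-1 is a family of paired transcription factors, and 10 of its genes were followed here in RNA-seq of mouse NK cells. They were chosen by symbol from the 48321 genes in the count tables and are *Jun*, *Junb* and *Jund* (JUN proteins), *Fos*, *Fosb*, *Fosl1* and *Fosl2* (FOS proteins), and the related *Batf*, *Batf3* and *Atf3*. NK cells were sorted fresh, with no treatment named, as CD45+ TCRb- NK1.1+ cells, from lung and spleen of C57/Bl6 mice. WT mice were compared with KO mice, in which both alleles lack *Ccl5*-PE, the proximal enhancer of the chemokine gene *Ccl5*. The sample labels say only KO, and the deleted element is taken from the text of the study. The 4 groups (lung WT, lung KO, spleen WT and spleen KO) had 2 libraries each. The deletion was made in the germline and is thus present in all cells of the KO mice. The mice of the study were of both sexes and ranged in age from a few weeks to a few months, and no age is given for a single library. The study kept its mouse lines apart, so that the deletion and other differences between the colonies cannot be told apart. Whether the libraries within a group were taken from different mice is not given in the sources used here. All n therefore count libraries, and all p-values measure the spread between these libraries, which may be technical.

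AP-1 proteins carry a basic leucine zipper (bZIP), with which they pair and bind DNA. JUN proteins can pair with each other or with FOS proteins, whereas FOS proteins need a JUN partner. BATF proteins pair with JUN proteins and, lacking an activation domain, can replace FOS in such pairs. *Fos*, *Fosb*, *Jun*, *Junb* and *Atf3* are immediate early genes, transcribed within minutes of a stimulus without new protein synthesis, and their RNAs are short-lived. In lymphocytes, AP-1 works downstream of activating receptors and MAP kinases and acts with NFAT and IRF factors on cytokine genes.

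Between 3132963 and 26482366 reads were counted on genes per library. The WT libraries of lung held 8444054 and 3992951 reads and the KO libraries 4783978 and 7196662. For spleen, the WT libraries held 3882458 and 8299635 reads and the KO libraries 3132963 and 26482366. Levels are given as CPM, the read count as a share of the library total, scaled by TMM, a method that sets most genes level between libraries. In the deepest library, 3 reads made 0.113 CPM and in the shallowest 0.958 CPM, the limit below which a gene at 0 may lie for counting error alone. *Ccl5* itself was counted at 19518 and 18350 CPM in lung WT and at 2992 and 3195 CPM in lung KO. In spleen, its values were 16679 and 15664 CPM in WT and 2676 and 2432 CPM in KO. The libraries of both genotypes thus carried the *Ccl5* level that their labels call for, with a log2 fold change of -2.61 ± 0.04 (SE, edgeR adjusted p = 2.3e-35) in lung and -2.67 ± 0.04 (edgeR adjusted p = 1.4e-35) in spleen.

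All 10 NK cell markers were detected in every library. *Ncr1*, which encodes the NK receptor NKp46, lay between 2801 and 3456 CPM. The 10 NK markers summed to 55528 and 53734 CPM in WT against 42724 and 43158 in KO lung and 40288 and 39553 in WT against 54260 and 51715 in KO spleen, and *Gzma* (granzyme A) was the most abundant of them.

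In lung, the loss of *Ccl5*-PE went with more RNA of all 3 JUN genes and of *Fos*, by 2.81- to 4.47-fold, and with a smaller rise of *Fosl2*. In spleen, the same 3 JUN genes were lower in KO, by 2.71- to 3.92-fold, as was *Atf3*, while *Fosl2* and *Batf* were higher. Of the 10 members, 8 had enough reads to be tested, and *Fosb* and *Fosl1* did not. In lung, 5 of the 8 were higher in KO, none was lower and 3 were not called at a false discovery rate (FDR) of 0.05. Under the same test, 55.6% of the 12595 genes tested were called in lung, 29.2% higher and 26.4% lower. Of the lung calls, 52.5% were thus higher in KO, and 63.3% were when libraries were scaled by their totals alone. In spleen, 2 of the 8 members were higher, 4 were lower and 2 were not called, against 57.1% of all genes called, 28.2% higher and 28.9% lower. Of the spleen calls, 49.3% were higher in KO, and 41.2% were with library totals. With 5 and 6 of 8 called, the members were called about as often as all genes in either organ. Their median log2 fold change was 1.03 in lung (0.02 over all genes tested) and -0.83 in spleen (0.00 over all genes). *Jun*, *Junb* and *Jund* were higher in lung KO and lower in spleen KO, a combination that 14.2% of all genes showed. The difference of the KO effect between the organs was called for 7 of the 8 members and for 61.6% of all genes. The KO and WT libraries did not overlap in CPM for 7 of the 8 tested members in either organ, which also held for 76% of all genes in lung and 73.8% in spleen.

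**Figure D1:**
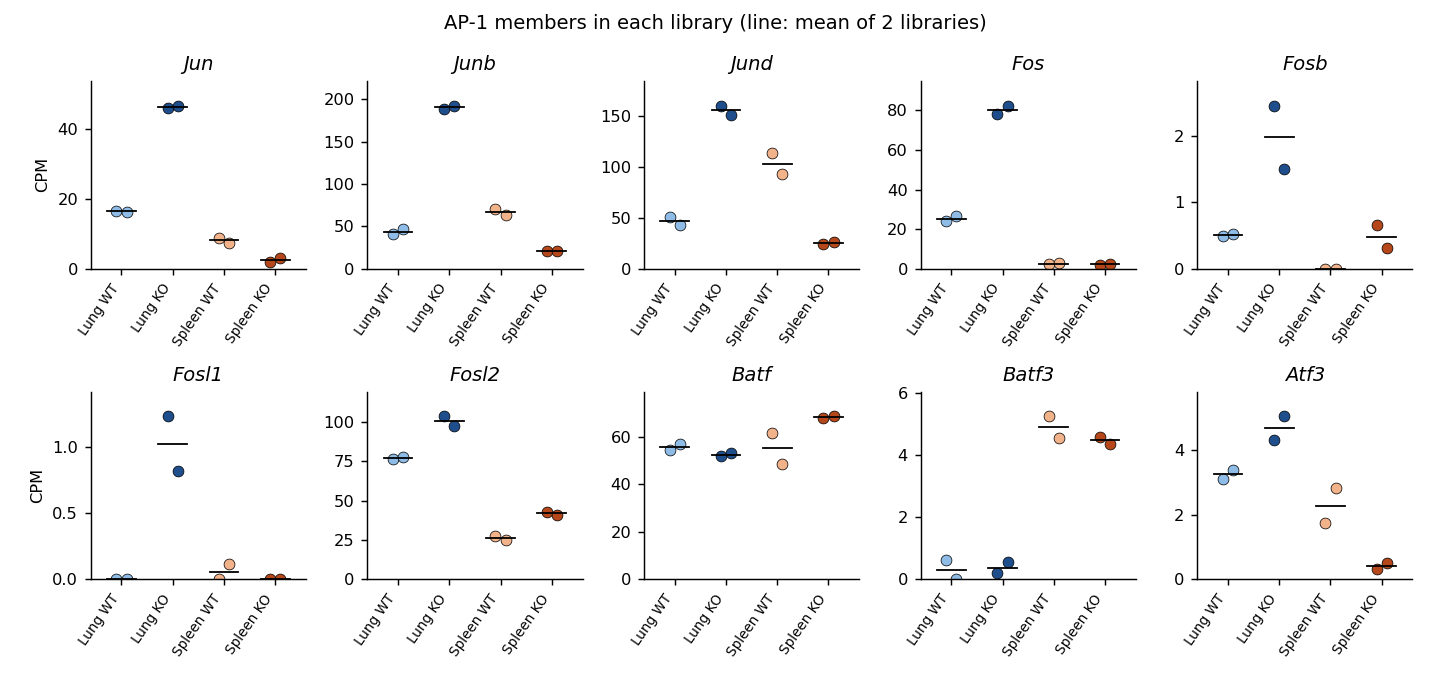
CPM of each of the 10 AP-1 members (vertical axes, each from 0 with its own scale) in the 8 libraries, grouped by organ and genotype. Points are libraries and bars the mean of 2 libraries. *Jun*, *Junb*, *Jund* and *Fos* were highest in lung KO, and the 3 JUN genes were lowest in spleen KO.

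The calls rest on a narrow spread, since the biological coefficient of variation estimated from these libraries was 2.50%. When every gene was given a coefficient of 0.2 instead, 1557 of the 12595 genes were called in lung and 1144 in spleen, of which 66.1% were higher in KO in lung and 31.5% in spleen. The genes then called thus leaned, as a whole, to the sides on which the JUN genes lay. Among the members, *Jun*, *Junb*, *Jund* and *Fos* were then still called in lung, and *Jun*, *Junb*, *Jund* and *Atf3* in spleen. *Fosl2* was not, at edgeR adjusted p = 0.472 in lung and 0.166 in spleen, nor was *Batf* in spleen (edgeR adjusted p = 0.607).

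RNA of other cells was present at low levels. The 6 lung epithelial markers, led by the surfactant gene *Sftpc*, summed to 254.6 and 252.6 CPM in lung WT and to 362.5 and 399.7 in lung KO, but to less than 1 CPM in every spleen library. *Sftpc* stood at 152.2 and 155.7 CPM in lung WT, at 251.1 and 282 CPM in lung KO and at 0 in spleen. Of the 4 epithelial markers tested, 3 were higher and 1 was lower in lung KO, where 5 AP-1 members were higher, and their part in those results was not tested. For NK markers, 7 of 10 were lower and 1 was higher in lung KO, and 9 were higher and 1 was lower in spleen KO, which for most of them is the reverse of the JUN genes. *Prf1*, which encodes perforin, was the exception in both organs and lay on the side of the JUN genes. It was at 1463 and 1556 CPM in WT against 2477 and 2554 in KO lung. In spleen, *Prf1* was at 1303 and 1320 CPM in WT against 938.9 and 937.7 in KO. *Cdh5*, a defining endothelial gene, was at 0 in spleen, and in lung it was counted at 9.45 and 8.55 CPM in WT against 4.71 and 7.76 in KO. The 7 endothelial and stromal markers, of which *Pecam1* was the most abundant, summed to 79.8 and 74.6 CPM in lung WT and 92.7 and 95.0 in lung KO. Of 4 tested, 1 was higher in lung KO and 0 were lower, *Pecam1* being the one called (60.7 and 57.5 CPM in WT, 80.2 and 78.2 in KO). The macrophage gene *Adgre1* and the neutrophil genes *S100a8* and *S100a9* were at 0 in all 8 libraries, and the 10 myeloid markers, led by *Itgax*, summed to between 157.9 and 180.8 CPM. The myeloid genes *Lyz2*, *Cd68* and *Csf1r* were detected in all libraries. In lung KO, *Lyz2* was higher (12.2 and 15.8 CPM in WT, 23.5 and 25.2 in KO), on the side of the JUN genes and *Fos*, and *Cd68* was lower (15.7 and 14.3 CPM in WT, 8.39 and 11.2 in KO). In spleen KO, 1 of the 4 myeloid markers tested was higher and 0 were lower. The sums of the 10 T cell markers, led by *Trbc1*, were 434.5 and 415.3 CPM in WT against 325.9 and 345.3 in KO lung and 561 and 549.2 in WT against 633.6 and 600.3 in KO spleen, with *Cd4*, *Cd8a*, *Cd8b1* and *Cd5* at 2.25 CPM or less in each library. Of 6 T cell markers tested, 3 were lower and 0 higher in lung KO, and 2 were higher and 1 lower in spleen KO. The last was *Cd3e*, which was lower in spleen KO like the JUN genes (32.0 and 32.5 CPM in WT, 7.51 and 11.2 in KO). The 6 B cell markers, led by *Ighm*, summed to between 248.1 and 307.7 CPM in lung and between 517.1 and 631.7 CPM in spleen. Of 5 tested, 2 were higher and 1 lower in lung KO, and 1 was higher and 1 lower in spleen KO. ILC1 markers (6, led by *Il7r*) summed to 119.2 and 115 CPM in WT against 75.9 and 75.5 in KO lung and 172.1 and 186 in WT against 150.2 and 161.6 in KO spleen. Of these 6, 2 were lower and 0 higher in lung KO, and 1 was higher and 2 lower in spleen KO. Platelet and erythroid markers (7, led by *Hbb-bs*) lay between 51.0 and 57.8 CPM in lung and between 1.499 and 2.94 CPM in spleen. Of 5 tested, 3 were higher and 2 lower in lung KO, and 1 was higher and 0 lower in spleen KO. The part of these markers in the AP-1 results was not tested. In such bulk samples, fewer cells of a type and less RNA per cell cannot be told apart.

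The stretches just before the transcription start of *Jun*, *Junb* and *Fos* are shown as those of immediate early genes called in lung. *Jund* is not shown, because its RefSeq start lies 1210 bases from its GENCODE start. Each is the 250 bases upstream of the RefSeq start on build GRCm38.p6, written 5′ to 3′ along the gene. *Jun* is from chr4:95052223-95052472 (minus strand), *Junb* from chr8:84978749-84978998 (minus strand) and *Fos* from chr12:85473640-85473889 (plus strand). Capitals mark, in *Jun*, a GC box (GGGCGG on the other strand), a CCAAT box and the word TGACATCA, in *Junb* a CCAAT box, and in *Fos* a GC box on the other strand, the word TGACGT and the TATA box TATAAA.
Jun: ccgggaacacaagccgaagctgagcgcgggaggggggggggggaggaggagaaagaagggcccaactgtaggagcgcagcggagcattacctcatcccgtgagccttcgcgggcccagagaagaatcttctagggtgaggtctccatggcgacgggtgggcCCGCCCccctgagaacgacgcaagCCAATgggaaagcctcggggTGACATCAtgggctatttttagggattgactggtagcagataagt
Junb: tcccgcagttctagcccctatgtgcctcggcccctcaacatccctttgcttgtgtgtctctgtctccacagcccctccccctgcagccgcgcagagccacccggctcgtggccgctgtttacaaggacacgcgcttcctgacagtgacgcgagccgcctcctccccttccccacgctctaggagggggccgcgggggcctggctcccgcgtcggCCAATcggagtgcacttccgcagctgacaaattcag
Fos: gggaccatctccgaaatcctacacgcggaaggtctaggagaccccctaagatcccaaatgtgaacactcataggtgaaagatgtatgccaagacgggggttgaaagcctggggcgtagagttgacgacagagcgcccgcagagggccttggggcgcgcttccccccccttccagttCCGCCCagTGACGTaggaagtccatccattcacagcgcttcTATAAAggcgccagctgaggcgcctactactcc

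RefSeq windows were found for 9 of the 10 members (all but *Fosl1*). The RefSeq start was the GENCODE start or within 51 bases of it for *Jun*, *Junb*, *Fos*, *Fosb* and *Batf*, but lay 567 bases away for *Batf3*, 671 for *Fosl2*, 1210 for *Jund* and 34706 for *Atf3*, so that these 4 windows may not be the promoters in use. The classical AP-1 site TGACTCA, the CRE (TGACGTCA) and the CArG box of serum response factor, read on both strands, were in none of the 9 windows, and 4.46%, 1.55% and 1.47% of all 32851 windows of this length held them. Only the 250 bases upstream of the start were searched. A word missing from a window may therefore lie farther upstream or within the gene, and its absence says nothing on the whole promoter. The following words were chosen after the sequences had been seen. TGACNTCA, which includes the CRE, was held by *Jun* alone (bases 45 to 38 upstream of the start) and by 7.49% of all windows. TGACGT, the first part of the CRE, was in the windows of *Fos* (66 to 61 upstream), *Batf* (98 to 93) and *Atf3* (8 to 3, on the other strand) and in 6.47% of all windows. TATAAA was in the *Fos* window (33 to 28 upstream) and in 12.4% of all. The CCAAT box lay 65 to 61 bases upstream in *Jun* and 36 to 32 in *Junb* (33.8% of all windows), and a GC box 89 to 84 bases upstream in *Jun* and 74 to 69 in *Fos* (32.7% of all), with further GC boxes in *Fosb*, *Fosl2*, *Batf*, *Batf3* and *Atf3*. A match is a description of these letters and not of a bound site.

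*Junb* encodes JUNB, a JUN protein that often dampens c-JUN and is needed by several activated lymphocyte types. The gene lies on the minus strand of chromosome 8 from 84974484 to 84978718 (GRCm38). It was counted at 40.7 and 46.6 CPM in lung WT and at 188.9 and 192.8 CPM in lung KO. In spleen, the values were 70.2 and 63.0 CPM in WT and 20.6 and 20.9 CPM in KO. The genotypes did not overlap in either organ, the lung KO libraries were the highest of all 8 and the spleen KO libraries the lowest. The KO effect was a log2 fold change of 2.16 ± 0.07 (SE, edgeR adjusted p = 2.8e-24) in lung and -1.65 ± 0.08 (edgeR adjusted p = 2e-18) in spleen. The effects differed by 3.81 ± 0.11 on the log2 scale (edgeR adjusted p = 2.6e-26), the largest difference among the members tested.

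*Jund* encodes JUND, the JUN protein that resting cells usually hold in the largest amount. It lies on the plus strand of chromosome 8 from 70698949 to 70700616. Its level in lung was 50.9 and 42.5 CPM in WT against 160.5 and 151.2 CPM in KO. Its level in spleen was 113.7 and 93.1 CPM in WT against 24.2 and 25.9 CPM in KO. The lung KO libraries were again the highest and the spleen KO libraries the lowest, without overlap between genotypes. The log2 fold change was 1.69 ± 0.08 in lung (edgeR adjusted p = 1.7e-19) and -1.97 ± 0.08 in spleen (edgeR adjusted p = 8.4e-21). The difference between the organs was 3.67 ± 0.12 (edgeR adjusted p = 2.5e-25).

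The *Jund* counts carry an uncertainty. *Gm11175*, on the opposite strand from 70699162 to 70700080, overlaps 52.6% of the exonic length of *Jund*. All 877 exonic bases of *Gm11175* lie within exons of *Jund*, so that reads counted for it may stem from *Jund*. The labels name the NEBNext Ultra kit, which does not mark strand. The methods of the study name NEBNext Ultra II, without saying whether that version marked strand. No strand setting of the library or the counting is given, so that reads of the overlapping genes cannot be told apart. *Gm11175* was counted at 21.6 and 22.0 CPM in WT against 88.6 and 84.4 in KO lung and 62.5 and 56.6 in WT against 9.47 and 11.03 in KO spleen. Its groups stood in the same order as those of *Jund*, with 0.392 to 0.607 reads per *Jund* read, and its log2 fold change was 1.98 ± 0.09 in lung (edgeR adjusted p = 2e-19) and -2.43 ± 0.10 in spleen (edgeR adjusted p = 1.5e-21). The other overlaps on the opposite strand were shorter for *Jun* (*Junos*, 7.28% of its exonic length) and *Junb* (*Prdx2*, 7.52%), and covered 57.2% of *Fosl1* (*Ccdc85b*). *Prdx2*, a peroxiredoxin gene, had KO effects of 0.16 ± 0.08 in lung (edgeR adjusted p = 0.0895) and 0.17 ± 0.07 in spleen (edgeR adjusted p = 0.0279), far from those of *Junb*. *Junos* lay higher in lung KO, like *Jun*, at 2.11 and 0.777 CPM in WT against 3.89 and 7.08 in KO. In spleen, *Junos* was at 0.250 and 0.818 CPM in WT against 0.653 and 0.498 in KO, with overlap.

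*Jun* encodes c-JUN, the founding member of the family, whose activity is raised when JNK phosphorylates it. The gene lies on the minus strand of chromosome 4 from 95049034 to 95052222. Its level was 16.7 and 16.3 CPM in lung WT and 46.1 and 46.8 CPM in lung KO. In spleen, it was 8.74 and 7.48 CPM in WT and 1.96 and 3.03 CPM in KO, where the first value rests on 6 reads. The genotypes did not overlap in either organ. The log2 fold change was 1.49 ± 0.12 in lung (edgeR adjusted p = 2e-13) and -1.44 ± 0.21 in spleen (edgeR adjusted p = 3e-07), and the difference between the organs was 2.93 ± 0.24 (edgeR adjusted p = 4.8e-13).

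**Figure D2:**
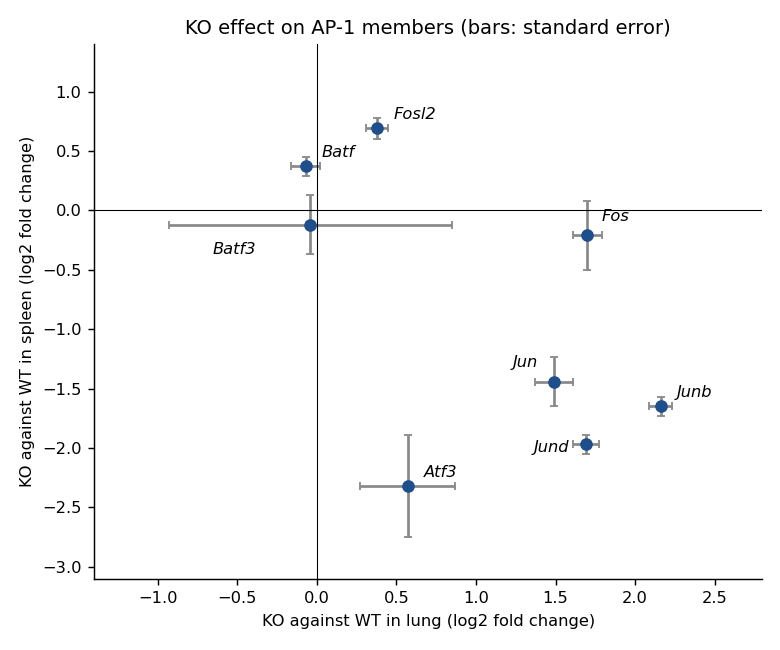
Log2 fold change between KO and WT in lung (horizontal axis) and in spleen (vertical axis) for the 8 AP-1 members tested; points are estimates from edgeR and bars standard errors. *Jun*, *Junb*, *Jund* and *Atf3* lie to the right and below 0, though *Atf3* was not called in lung, and *Fos* lies at 1.70 in lung and near 0 in spleen.

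Among the FOS genes, *Fos* encodes c-FOS, which binds DNA only in a pair with a JUN protein. It lies on the plus strand of chromosome 12 from 85473890 to 85477273. Its level was 23.9 and 26.7 CPM in lung WT and 78.4 and 82.5 CPM in lung KO. In spleen, it was 2.50 and 2.69 CPM in WT and 1.96 and 2.30 CPM in KO, from 6 to 60 reads per library. All lung libraries lay above all spleen libraries, and the lung KO libraries were the highest. The log2 fold change was 1.70 ± 0.09 in lung (edgeR adjusted p = 1.1e-17). In spleen, it was -0.21 ± 0.29 (edgeR adjusted p = 0.571), and no difference was detectable at this depth. The KO effects differed between the organs by 1.91 ± 0.33 (edgeR adjusted p = 4.8e-06).

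*Fosl2* encodes FRA2, a FOS protein that persists longer after stimulation than c-FOS and lacks its activation domain. The gene lies on the plus strand of chromosome 5 from 32135801 to 32157842. It was counted at 76.6 and 77.7 CPM in WT against 103.8 and 97.3 in KO lung and 27.5 and 25.0 in WT against 43.1 and 41.3 in KO spleen. KO libraries lay above WT libraries in both organs. The log2 fold change was 0.38 ± 0.07 in lung (edgeR adjusted p = 1.5e-05) and 0.69 ± 0.09 in spleen (edgeR adjusted p = 5.3e-08). The effects differed by -0.31 ± 0.12 (edgeR adjusted p = 0.0208), a call that was lost without lung KO 2 (-0.25, edgeR adjusted p = 0.093), spleen WT 2 (-0.22, edgeR adjusted p = 0.255) or spleen KO 2 (-0.36, edgeR adjusted p = 0.0656). It was also lost with library totals (-0.15, edgeR adjusted p = 0.283) and at a coefficient of variation of 0.2 (-0.30, edgeR adjusted p = 0.686), and the GC offset moved it to -0.62.

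*Fosb*, an immediate early gene like *Fos*, and *Fosl1*, which encodes FRA1, were near the floor. In lung, *Fosb* had 4 and 2 reads in WT against 12 and 11 in KO. In spleen, it had no read in WT against 2 and 8 reads in KO. *Fosl1* had 6 reads in each lung KO library, 1 read in spleen WT 2 and 0 reads in the other 5 libraries. Both were thus highest in lung KO, at 2.46 and 1.497 CPM for *Fosb* and 1.23 and 0.816 CPM for *Fosl1*, and neither entered the test. Without the filter on low counts, both were called higher in lung KO (edgeR adjusted p = 0.0137 for *Fosb* and 0.00421 for *Fosl1*). *Fosb* in spleen then had an edgeR adjusted p of 0.036, but its 0.653 and 0.306 CPM in KO were no higher as a pair than the 0.773 and 0.362 CPM that 3 reads make in the 2 WT libraries, so that no direction can be read from it. The lung call of *Fosl1* rests on 6 reads in each KO library, and *Ccdc85b* covers 57.2% of its exonic length from the other strand. *Ccdc85b* was at 6.96 and 7.51 CPM in lung WT against 8.19 and 10.3 in lung KO (edgeR adjusted p = 0.0974).

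*Batf* encodes the BATF protein of T cells, B cells and other lymphocytes, and lies on the plus strand of chromosome 12 from 85686669 to 85709087. It was counted at 54.5 and 56.7 CPM in WT against 52.0 and 52.9 in KO lung and 61.5 and 48.6 in WT against 67.9 and 68.6 in KO spleen. The KO effect was -0.07 ± 0.09 in lung (edgeR adjusted p = 0.512) and 0.37 ± 0.08 in spleen (edgeR adjusted p = 0.00012), and the effects differed by -0.44 ± 0.12 (edgeR adjusted p = 0.00163). With the GC offset, the value was -0.35 in lung (edgeR adjusted p = 0.00092), 0.62 in spleen and -0.96 for the difference. At a coefficient of variation of 0.2, neither spleen (0.32, edgeR adjusted p = 0.607) nor the difference (-0.40, edgeR adjusted p = 0.578) was called. The calls in spleen and of the difference also rested on spleen WT 2, the lowest spleen library. Without it, the spleen value was 0.16 (edgeR adjusted p = 0.227) and the difference -0.23 (edgeR adjusted p = 0.145).

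*Batf3*, known for its role in dendritic cells, was counted at 0.622 and 0 CPM in WT against 0.205 and 0.544 in KO lung and 5.25 and 4.56 in WT against 4.57 and 4.37 in KO spleen. Its lung values came from 0 to 5 reads, and the genotypes overlapped in both organs. The KO effect was -0.04 ± 0.89 in lung (edgeR adjusted p = 0.978) and -0.12 ± 0.25 in spleen (edgeR adjusted p = 0.697).

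*Atf3* encodes a stress-induced factor that pairs with JUN proteins and often represses. It lies on the minus strand of chromosome 1 from 191170296 to 191218039. It was counted at 3.11 and 3.37 CPM in WT against 4.30 and 5.03 in KO lung and 1.75 and 2.804 in WT against 0.326 and 0.498 in KO spleen, where the values rest on 1 and 13 reads. The spleen KO libraries lay below all others. The log2 fold change was 0.57 ± 0.30 in lung (edgeR adjusted p = 0.105) and -2.32 ± 0.43 in spleen (edgeR adjusted p = 1.7e-05), and the difference between the organs was 2.89 ± 0.52 (edgeR adjusted p = 9.5e-06).

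The comparison of the organs asks which AP-1 genes lung NK cells hold at another level than spleen NK cells. The study describes enzyme digestion of lungs for its tumor models, and mashing of both organs for flow cytometry. Which of these was used for the RNA-seq libraries is not given, so that organ and tissue handling cannot be told apart. In WT, *Fos* (log2 fold change of lung against spleen 3.23 ± 0.20, edgeR adjusted p = 8.8e-17), *Fosl2* (1.58 ± 0.09, edgeR adjusted p = 1.8e-17) and *Jun* (1.07 ± 0.17, edgeR adjusted p = 1.5e-06) were higher in lung. *Jund* (-1.07 ± 0.09, edgeR adjusted p = 3.9e-13), *Junb* (-0.62 ± 0.09, edgeR adjusted p = 1.3e-07) and *Batf3* (-3.47 ± 0.49, edgeR adjusted p = 1.9e-07) were lower. *Batf* (0.06 ± 0.09, edgeR adjusted p = 0.601) and *Atf3* (0.37 ± 0.34, edgeR adjusted p = 0.367) were not called. With the GC offset, however, *Batf* was called higher in lung (0.28, edgeR adjusted p = 0.00653). Without the offset, the 6 calls compare with 57% of all genes. For *Batf3*, the size depended on lung WT 1, without which the value was -8.30 because the remaining lung WT library held no read of it.

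In KO, all 8 members tested differed between lung and spleen, as did 65.6% of all genes. *Fos* (5.15 ± 0.12, edgeR adjusted p = 4.5e-30), *Jun* (3.99 ± 0.14, edgeR adjusted p = 6.4e-25), *Atf3* (3.26 ± 0.36, edgeR adjusted p = 6e-10) and *Junb* (3.19 ± 0.07, edgeR adjusted p = 1.9e-31) had the largest differences toward lung. *Jund* (2.60 ± 0.08, edgeR adjusted p = 9.7e-27) and *Fosl2* (1.27 ± 0.07, edgeR adjusted p = 1.3e-18) were also higher in lung. *Batf* (-0.38 ± 0.08, edgeR adjusted p = 5.2e-05) and *Batf3* (-3.38 ± 0.46, edgeR adjusted p = 4.7e-08) were lower in lung. The call of *Batf* was lost at a coefficient of variation of 0.2 (-0.38, edgeR adjusted p = 0.409). With the GC offset, its value moved to -0.69 (edgeR adjusted p = 1.8e-10). *Junb* and *Jund* therefore stood lower in lung than in spleen in WT and higher in lung in KO. For *Junb* in WT, that order was not called at a coefficient of variation of 0.2 (-0.61, edgeR adjusted p = 0.173), and it was smaller with the GC offset (-0.34). The comparisons within WT and within KO use the same libraries as those between genotypes and are another view of the same values.

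To compare levels between genes, CPM were divided by the exonic length of each gene in kb (GENCODE M21). In lung WT, *Batf* had the highest level per kb (38.7 to 40.4), followed by *Jund* (25.5 to 30.5), *Junb* (17.7 to 20.3), *Fos* (10.2 to 11.3), *Fosl2* (7.91 to 8.03) and *Jun* (5.12 to 5.22). In lung KO, *Jund* (90.6 to 96.2) and *Junb* (82.1 to 83.8) moved ahead of *Batf* (37.0 to 37.6) and *Fos* (33.3 to 35.1). In spleen WT, the order was *Jund* (55.8 to 68.1), *Batf* (34.6 to 43.7) and *Junb* (27.4 to 30.5). In spleen KO it was *Batf* (48.3 to 48.8), *Jund* (14.5 to 15.5) and *Junb* (8.94 to 9.09). With the counts as they stand, none of these neighbours overlapped in their 2 libraries. Because reads of *Jund* and *Gm11175* cannot be told apart, the places of *Jund* in these orders are uncertain. Overlap between neighbours occurred only among low members, for *Batf3* and *Fosb* in lung WT, *Fosb* and *Batf3* in lung KO, *Fosl2* and *Jun*, *Fos* and *Atf3*, and *Fosl1* and *Fosb* in spleen WT, and *Fos* and *Jun* in spleen KO.

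Summed over the 10 members, the level per kb was 112.1 ± 0.1 (SD, n = 2) in lung WT and 276 ± 1.24 in lung KO. In spleen, it was 140.6 ± 17.7 in WT and 81.7 ± 1.30 in KO. JUN genes made up 46.5% ± 1.63 of this sum in lung WT against 69.2% ± 0.629 in lung KO. In spleen, they made up 66.5% ± 0.408 in WT against 30.4% ± 0.836 in KO. FOS genes made up 16.8% ± 0.814 and 16.5% ± 0.252 in lung WT and KO, and 2.75% ± 0.287 and 6.54% ± 0.192 in spleen. The remainder, nearly all of it *Batf*, stood at 14.4% ± 0.377 in lung KO against 36.8% ± 0.819 in lung WT, and at 63.1% ± 0.644 in spleen KO against 30.7% ± 0.695 in spleen WT. Per kb, JUN genes ranged over the groups from 24.8 to 190.9 and the remainder from 39.7 to 51.5. The sums and shares of JUN genes include the uncertain *Jund* counts. The shares describe RNA and were not tested.

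**Figure D3:**
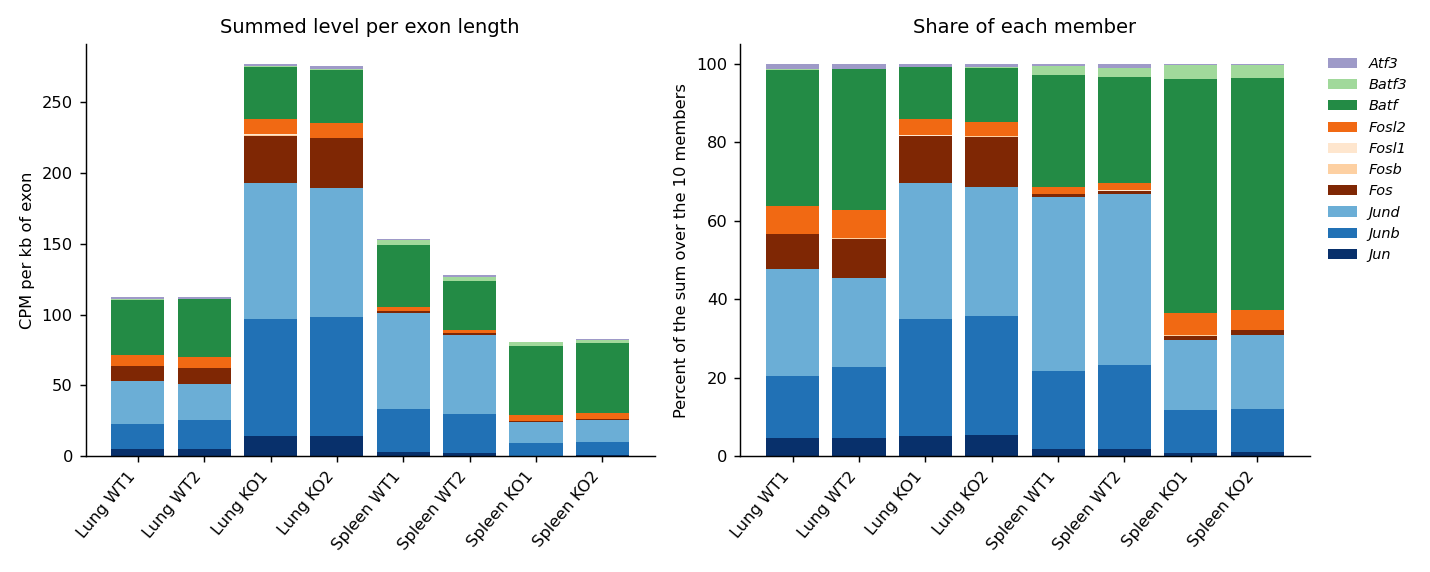
Left, CPM per kb of exon summed over the 10 AP-1 members in each of the 8 libraries, with each member as a colour. Right, the same as a percentage of the sum. JUN genes (blue) hold the largest share in lung KO and *Batf* (green) in spleen KO.

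Over the 8 libraries, the log2 CPM of *Jun* ran most closely with *Nr4a1* (Pearson r = 0.996), an immediate early gene of the nuclear receptor family, *Bhlhe40* (0.995) and *Akap8* (0.990). For *Junb*, the closest genes were *Clic4* (0.995), *Mapk1ip1l* (0.994) and *Sh2d3c* (0.992). For *Jund*, they were *Por* (0.996), the overlapping *Gm11175* (0.995) and *Spata13* (0.995), and for *Fos* they were *Gpihbp1* (0.997), *Acvrl1* (0.996) and *Litaf* (0.995). *Gpihbp1* and *Acvrl1* are known as endothelial genes. *Gpihbp1* was at 2.11 and 3.11 CPM in WT against 7.37 and 9.12 in KO lung, and *Acvrl1* at 1.12 and 1.295 in WT against 2.66 and 3.95 in KO lung, and both were at 0 in spleen. Both, like *Pecam1*, lay higher in lung KO together with *Fos*. Other genes of the endothelial and stromal list were not called and went both ways in lung KO. *Col1a2* (0.249 and 0 CPM in WT, 1.23 and 1.09 in KO) lay higher. *Cdh5*, *Col1a1* and *Col3a1* (4.48 and 3.89 CPM in WT, 2.87 and 2.72 in KO) lay lower. *Kdr* (2.61 and 1.81 CPM in WT, 3.07 and 2.59 in KO) and *Dcn* overlapped between genotypes. *Pecam1* was at 65.0 to 74.9 CPM in spleen, where *Cdh5* was at 0. The part of *Gpihbp1* and *Acvrl1* in the result for *Fos* was not tested. Among the members, r was 0.95 between *Junb* and *Jund*, 0.93 between *Jun* and *Fos*, 0.54 between *Jund* and *Fos*, and -0.73 between *Jund* and *Batf*. These values describe 8 libraries that fall into 4 groups, so that they mainly reflect the group means.

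Genes that work with AP-1 were counted in lists, each to be read against the 29.2% of all genes higher and 26.4% lower in lung KO and the 28.2% higher and 28.9% lower in spleen KO, with medians of 0.02 and 0.00. Counts given with the GC offset are to be read against that fit, in which 3297 of 12595 genes were higher and 3529 lower in lung KO. In spleen KO, 3720 were then higher and 3312 lower. Of 27 listed bZIP partners and relatives, 23 were tested, and 11 were higher and 4 lower in lung KO, with 4 higher and 9 lower in spleen KO. The share called in either direction was near that of all genes, and the median log2 fold change was 0.41 in lung and -0.21 in spleen. At a coefficient of variation of 0.2, 4 were higher and 1 was lower in lung, and 0 were higher and 3 lower in spleen. *Cebpb*, a C/EBP factor induced in inflammation, followed the JUN genes, with 6.47 and 5.44 CPM in WT against 26.6 and 21.5 in KO lung and 5.50 and 4.56 in WT against 0.653 and 0.766 in KO spleen. The value of 0.653 CPM in spleen KO 1 lay below the 0.958 CPM that 3 reads make in that library. The log2 fold change of *Cebpb* was 1.95 ± 0.18 in lung (edgeR adjusted p = 1.6e-11) and -2.67 ± 0.33 in spleen (edgeR adjusted p = 1e-08). *Mafg*, a small MAF protein, did likewise (1.55 ± 0.20 in lung, edgeR adjusted p = 3.7e-08, and -0.81 in spleen, edgeR adjusted p = 0.00054). *Crem*, a cAMP-responsive factor, was higher in KO in both organs (0.89 ± 0.07 in lung, edgeR adjusted p = 5.1e-14, and 0.35 ± 0.10 in spleen, edgeR adjusted p = 0.00216), but its spleen call was lost without spleen WT 1 (0.22, edgeR adjusted p = 0.0758). *Bach2*, a repressor that competes for AP-1 sites in lymphocytes, fell in spleen KO (-1.04 ± 0.09, edgeR adjusted p = 4.3e-12) and had a lung value of 0.02 (edgeR adjusted p = 0.855). *Maff* was at 0.999 and 1.87 CPM in spleen WT, while the spleen KO libraries held 0 and 0.0383 CPM. Among the genes lower in lung KO was *Atf1* (-0.96 ± 0.12, edgeR adjusted p = 8.5e-09).

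Of the MAP kinase cascade genes upstream of AP-1, 27 of 31 were tested, and 14 were higher and 3 lower in lung KO, against 5 higher and 11 lower in spleen KO. Their median log2 fold change was 0.25 in lung and -0.14 in spleen. With the GC offset, 11 were higher and 3 lower in lung, and 7 higher and 9 lower in spleen. *Rps6ka1*, which encodes the kinase RSK1 downstream of ERK, was at 114.5 and 120.7 CPM in WT against 205.9 and 206.9 in KO lung and at 179.4 and 160.2 in WT against 108.4 and 114.8 in KO spleen. Its effects were 0.82 ± 0.06 in lung (edgeR adjusted p = 1.7e-14) and -0.56 ± 0.06 in spleen (edgeR adjusted p = 8.8e-11). *Map2k4*, an upstream kinase of JNK, and *Mapk14*, which encodes p38 alpha, were also higher in lung KO (0.90, edgeR adjusted p = 2.2e-11, and 0.55, edgeR adjusted p = 3.9e-08) and lower in spleen KO (-0.43, edgeR adjusted p = 1.2e-06, and -0.55, edgeR adjusted p = 4.7e-09). *Map3k1*, at the top of the JNK cascade, moved the other way (-0.73 ± 0.04 in lung, edgeR adjusted p = 4.4e-17, and 0.22 ± 0.04 in spleen, edgeR adjusted p = 2.7e-05). In all, 8 of the 27 genes were higher in lung KO and lower in spleen KO, and 2 were the reverse, where all genes showed these combinations at 14.2% and 12.8%. These moderate changes depended on the narrow spread, since with a coefficient of variation of 0.2, 2 genes of the list were called in lung and 0 in spleen.

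The MAP kinase phosphatases, which switch the cascade off, were tested for 7 of 11 genes. In lung KO, 4 were higher and 3 lower, and in spleen KO none was higher and 3 were lower, with medians of 0.69 and -0.18. With the GC offset, 1 was higher and 1 lower in spleen. With DESeq2 and at coefficients of variation of 0.1 and 0.2, 0 were higher and 1 was lower in spleen. At 0.2, 2 were higher and 1 was lower in lung. *Dusp1*, itself an immediate early gene, had the same pattern as *Jun*, with 283.1 and 306.5 CPM in WT against 594 and 596.3 in KO lung and 26.7 and 21.7 in WT against 4.24 and 5.48 in KO spleen. Its log2 fold change was 1.02 ± 0.05 in lung (edgeR adjusted p = 2.1e-20) and -2.13 ± 0.14 in spleen (edgeR adjusted p = 4.1e-15). *Dusp10* rose in lung (1.25 ± 0.16, edgeR adjusted p = 4.1e-08) with a spleen value of -0.09 (edgeR adjusted p = 0.553), and *Dusp16* fell in lung (-1.90 ± 0.30, edgeR adjusted p = 1.6e-06).

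Of the factors acting on the *Fos* and *Jun* promoters, 9 of 12 were tested, with 1 higher and 3 lower in lung KO and 3 higher and 4 lower in spleen KO (medians -0.13 and -0.20). With the GC offset, 1 was higher and 6 were lower in lung, and 4 were higher and 3 lower in spleen. At a coefficient of variation of 0.2, no call was left in either organ. *Mkl1*, a coactivator of serum response factor, was higher in lung KO (0.56 ± 0.12, edgeR adjusted p = 0.00023) and lower in spleen KO (-0.54 ± 0.11, edgeR adjusted p = 5.9e-05), whereas its relative *Mkl2* was lower in lung KO (-0.72 ± 0.08, edgeR adjusted p = 7.7e-10) and higher in spleen KO (0.50 ± 0.07, edgeR adjusted p = 7.2e-08). Both calls of *Mkl1* were lost with the GC offset (0.24, edgeR adjusted p = 0.106, in lung and -0.24, edgeR adjusted p = 0.0556, in spleen). Of the partners at composite sites, 11 of 12 were tested, with 3 higher and 3 lower in lung KO and 4 higher and 4 lower in spleen KO (medians -0.04 and -0.02). With the GC offset, 1 was higher and 4 were lower in lung, and 5 were higher and 2 lower in spleen. At a coefficient of variation of 0.2, 1 gene was called in lung, as lower, and 0 in spleen. *Irf8*, an interferon regulatory factor, had effects of 0.37 ± 0.04 in lung (edgeR adjusted p = 7.8e-11) and -0.27 ± 0.04 in spleen (edgeR adjusted p = 1.6e-06), and *Nfatc2* was called higher in both organs (0.53 ± 0.15 in lung, edgeR adjusted p = 0.00291, and 0.63 ± 0.13 in spleen, edgeR adjusted p = 8.3e-05). The lung call of *Nfatc2* was lost without lung WT 1 (0.40, edgeR adjusted p = 0.126), with the GC offset (0.30, edgeR adjusted p = 0.0966) and with DESeq2 (adjusted p = 0.082), and its spleen call without spleen KO 2 (0.51, edgeR adjusted p = 0.0802).

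Regulators of JUN and FOS stability were tested for 13 of 14 genes, with 4 higher and 5 lower in lung KO and 5 higher and 5 lower in spleen KO (medians -0.01 and 0.11). At a coefficient of variation of 0.2, 1 was higher and 1 lower in lung, and 1 was higher and 0 were lower in spleen. *Zfp36*, which encodes tristetraprolin, a protein that speeds the decay of AU-rich mRNAs, was at 51.4 and 47.7 CPM in WT against 108.3 and 100.5 in KO lung and at 99.7 and 88.5 in WT against 53.2 and 56.8 in KO spleen. It rose with the JUN genes in lung (1.05 ± 0.08, edgeR adjusted p = 4.5e-14) and fell in spleen (-0.72 ± 0.07, edgeR adjusted p = 3.5e-11). *Fbxw7*, a ubiquitin ligase subunit that marks phosphorylated c-JUN for degradation, moved the other way (-0.41 in lung, edgeR adjusted p = 1.1e-06, and 0.66 ± 0.05 in spleen, edgeR adjusted p = 1.2e-12).

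Of 20 textbook target genes of AP-1, 11 were tested, with 4 higher and 4 lower in lung KO and 7 higher and 2 lower in spleen KO. In spleen, DESeq2 called 4 higher and 1 lower, and at a coefficient of variation of 0.2 edgeR called 1 higher and 1 lower. The median log2 fold change of these 11 was -0.22 in lung and 0.41 in spleen. *Ifng*, which encodes interferon gamma, was at 92.7 and 94.3 CPM in WT against 184.6 and 180.5 in KO lung and 83.4 and 78.8 in WT against 109.4 and 113.3 in KO spleen, and was higher in KO in both organs (0.97 ± 0.06 in lung, edgeR adjusted p = 2.3e-16, and 0.48 ± 0.06 in spleen, edgeR adjusted p = 1.3e-08). *Fasl*, the ligand of the death receptor FAS, fell in lung (-0.33 ± 0.04, edgeR adjusted p = 6.7e-10) and rose in spleen (0.41 ± 0.04, edgeR adjusted p = 1.8e-11). *Cd44* did likewise (-0.53 ± 0.04 in lung, edgeR adjusted p = 6.5e-13, and 0.21 in spleen, edgeR adjusted p = 6.8e-05). *Cd69* had small effects of 0.15 in lung (edgeR adjusted p = 0.0335) and -0.16 ± 0.06 in spleen (edgeR adjusted p = 0.0271), and its spleen call was lost without spleen WT 2 (-0.06, edgeR adjusted p = 0.658), without spleen KO 1 (-0.13, edgeR adjusted p = 0.0897) and with DESeq2 (adjusted p = 0.182).

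**Figure D4:**
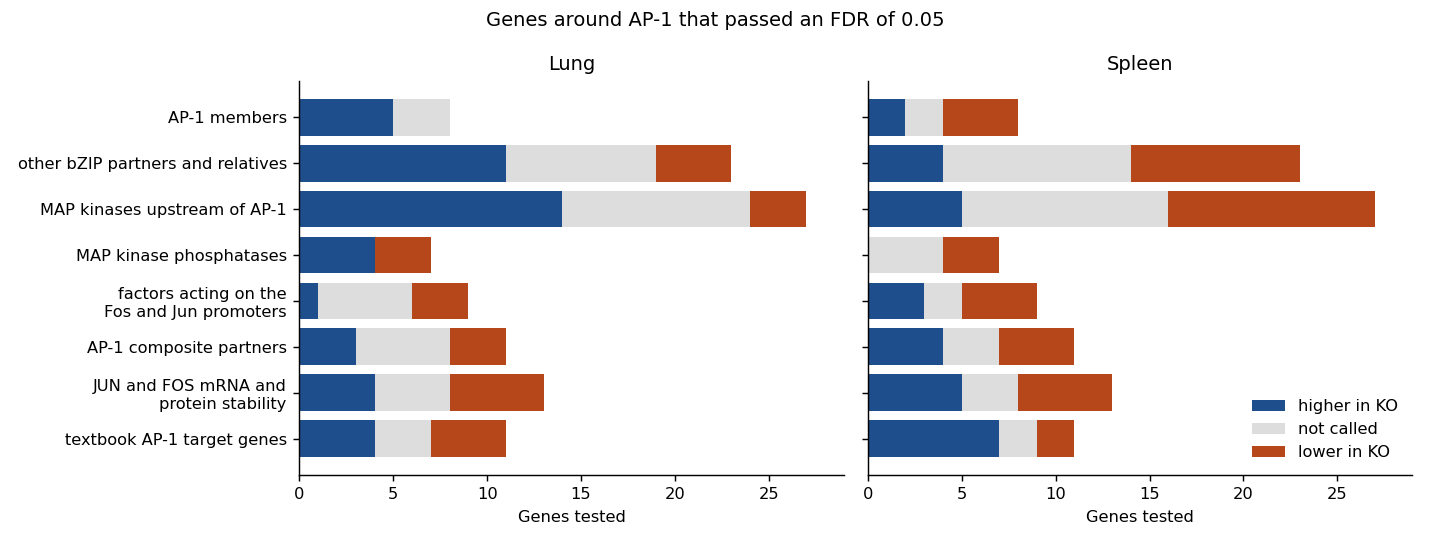
Number of genes tested (horizontal axis) in the AP-1 family and in 7 lists of genes around it, split into higher in KO, not called and lower in KO with edgeR (FDR 0.05), in lung and spleen. More MAP kinase genes were higher than lower in lung (14 against 3) and more were lower than higher in spleen (11 against 5), while the target genes were split 4 to 4 in lung and 7 to 2 in spleen.

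*Jund* and *Junb* had the highest GC content among the members, and KO effects across genes moved with GC content. The longest transcripts of *Jund*, *Junb*, *Jun* and *Fos* have a GC content of 67.1%, 62.6%, 55.5% and 51.9%. Across 5094 well-counted genes, the Spearman correlation between GC content and KO effect was 0.326 in lung and -0.288 in spleen, values over genes, which are not independent. After an offset that removes the GC trend from each library, *Junb* had a log2 fold change of 1.76 in lung and -1.25 in spleen, *Jund* of 1.21 and -1.47, *Jun* of 1.25 and -1.22, and *Fos* of 1.56 in lung. These 7 values kept their direction and stayed past an FDR of 0.05, the largest edgeR adjusted p being 4.7e-06. *Batf* (GC content 56.6%) was called lower in lung KO with the offset (-0.35, edgeR adjusted p = 0.00092), and its spleen value moved to 0.62. *Fosl2* moved to 0.20 in lung (edgeR adjusted p = 0.0104). The differences between the organs moved from 3.81 to 3.01 for *Junb*, from 3.67 to 2.69 for *Jund* and from 2.93 to 2.47 for *Jun*, all still called (largest edgeR adjusted p = 2.7e-11), and to -0.96 for *Batf* and -0.62 for *Fosl2*.

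**Figure D5:**
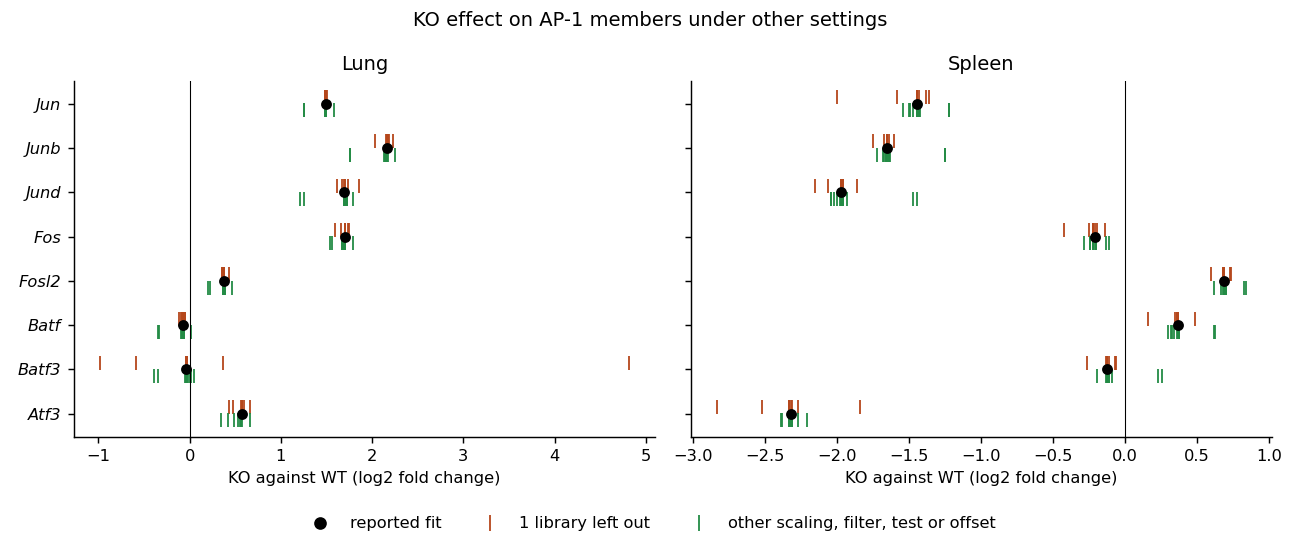
Log2 fold change between KO and WT (horizontal axes) of the 8 AP-1 members tested, in lung and spleen. Black points are the values reported, brown ticks those with 1 library left out and green ticks those with another scaling, filter, test or GC offset. *Jun*, *Junb* and *Jund* stay on one side of 0 in each organ, and *Batf3* in lung ranges from -0.98 to 4.81.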

How the data were processed

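Per the labels, RNA of sorted NK cells was made into libraries with a NEBNext Ultra kit and sequenced to 50 bp reads. The authors aligned the reads to mm10 (GRCm38) with HISAT2 2.1.0, counted them on genes with HTSeq 0.11.1 (versions from the submitters' processing notes; the study's methods give another HTSeq release and the kit as Ultra II) and deposited these counts, unscaled, under gene symbols. Strand setting and annotation are not given in the sources used here, and between 52.7% and 55.0% of uniquely placed reads fell on no gene and stayed out of the totals.

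The counts were filtered by filterByExpr, scaled by TMM (factors 0.954 to 1.03) and fitted in edgeR 4.0.16 (R 4.3.3, limma 3.58.1) with 1 mean per group over all 8 libraries. Groups were compared by its quasi-likelihood test, with p-values over 12595 genes adjusted after Benjamini-Hochberg and called at an FDR of 0.05. Errors are SD over 2 libraries or SE of a log2 fold change. Log2 CPM used a prior count of 2. Alternatives were other scalings (by RLE, by the upper quartile, by library totals), other filters (none, or 10 counts or more in each library), DESeq2 1.42.0, only the 4 libraries compared, the replicate block, a GC offset (spline, 5 degrees of freedom) without and with the block, assumed coefficients of variation of 0.1 and 0.2, and leaving out each library.

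Gene models came from GENCODE M21: 46394 of 48321 symbols matched by name and 591 by synonym. The members, gene lists, markers and alternatives were chosen with earlier results of these data known. The genes named are *Ccl5*, markers of cell types, all members, genes overlapping them and up to 3 genes per list and direction with the smallest p. They also include the 3 most correlated genes for *Jun*, *Junb*, *Jund* and *Fos*. List genes printed were picked among these after their values were seen.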

Additional observations from a re-analysis of the deposited data

Results flagged for a closer look

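The KO effect (log2 fold change between KO and WT) was not the same in lung as in spleen for 7 AP-1 members by edgeR's test of that difference. For the JUN genes, the effect in lung minus that in spleen was 2.93 for *Jun*, 3.81 for *Junb* and 3.67 for *Jund*, and for *Atf3* it was 2.89. With the GC offset, the JUN differences were 2.47, 3.01 and 2.69. For *Fos*, it was 1.91, with *Fos* counted at 6 to 60 reads in spleen. For *Fosl2* and *Batf*, the differences were -0.31 and -0.44, and both lost their call when spleen WT 2 was left out. No group has enough libraries for an outlier test.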

How the results depend on the processing

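Across 771 recomputed values of single members, 736 kept their direction and side of the threshold, 18 lost and 4 gained a call, and 13 changed sign. *Jun*, *Jund*, *Fos* and *Atf3* had no change of either kind in any alternative that gave a value. *Junb* lost a call only for lung against spleen in WT at an assumed coefficient of variation of 0.2 (-0.61, edgeR adjusted p = 0.173). All sign changes were in *Batf* and *Batf3*. With library totals, *Batf* was 0.02 in lung and -0.05 between organs in WT, and *Batf3* was 0.05 in lung. The GC offset gave *Batf3* 0.23 in spleen and -0.62 for the difference between organs, and with the replicate block 0.26 and -0.61. With libraries left out, *Batf3* ranged from -0.98 to 4.81 in lung and from -0.86 to 4.92 for the difference, and *Batf* between organs in WT from -0.15 to 0.18; the cause was not tested.

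Genes called in lung were 4507 with DESeq2 and 4395 and 1557 at coefficients of 0.1 and 0.2 (7000 reported), and in spleen 4165, 4112 and 1144 (7195 reported). Coefficients of 0.1 and 0.2 gave 4673 and 2011 genes between organs in WT, and 0.2 gave 2017 for the difference and 2316 between organs in KO. With libraries left out, the range was 5097 to 7350 in lung and 4448 to 7493 in spleen, lowest without spleen KO 2, the deepest library. Requiring at least 10 counts in every library left 3 called members in lung, 4 for the difference, 3 between organs in WT and 4 in KO, since fewer members were tested. Scaling by library totals moved the median of all genes by 0.093 in lung, -0.065 in spleen, 0.160 for the difference and -0.107 between organs in WT, and the share of calls that were higher from 52.5% to 63.3%, 49.3% to 41.2%, 52.9% to 63.5% and 48.6% to 36.9%. At a coefficient of 0.2, 13 of 40 named list genes were still called in lung and 7 of 38 in spleen. Of the named list genes, *Dusp2* and *Dusp5* in spleen changed sign with the GC offset (0.06 and 0.03).

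The sources used here do not say what libraries of equal number share. Between WT and KO libraries of equal number, the correlation of the deviations from the group means was -0.0139 in lung and 0.169 in spleen. Whether lung and spleen libraries of equal number came from the same mouse is not given and was not checked. With replicate number as a block, 6977 genes were called in lung, 7185 in spleen, 7764 for the difference, 7135 between organs in WT and 8200 in KO, and 39 of 40 member results were unchanged in direction and call. The exception was *Batf3* in lung (0.01). The fit of 4 libraries cannot give the difference.

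With 2 libraries per group and 6 to 60 reads of *Fos* in spleen, small changes of low members could not be detected. The number of genes called depends on the spread assumed between libraries.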

Other observations

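Within lung, the epithelial markers tested moved in both directions. The alveolar genes *Sftpa1* (13.2 and 12.2 CPM in WT, 44.6 and 48.3 in KO) and *Sftpb* (1.37 and 0.518 CPM in WT, 4.30 and 3.40 in KO) lay higher in KO, as *Sftpc* did, whereas *Scgb1a1*, a gene of airway club cells, lay lower (87.3 and 83.4 CPM in WT, 60.4 and 63.9 in KO). Platelet and erythroid markers, of which 3 were called higher and 2 lower in lung KO, also split. The hemoglobin genes *Hbb-bs* (13.2 and 16.6 CPM in WT, 28.7 and 31.7 in KO), *Hba-a1* (5.595 and 6.99 in WT, 8.19 and 11.7 in KO) and *Hba-a2* (2.61 and 2.33 in WT, 7.57 and 6.94 in KO) lay higher in KO, in the direction of the JUN genes. The platelet genes *Pf4* (8.58 and 8.29 CPM in WT, 1.23 and 0.544 in KO) and *Ppbp* (21.1 and 20.2 in WT, 4.71 and 6.12 in KO) lay lower. The part of these RNAs in the AP-1 results was not tested.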
